A study of Mus musculus with 23 samples.

Results

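The genotype difference was estimated over 14 of the 23 mouse heart libraries, namely all those made from isolated cardiomyocytes. An additive model with treatment as a covariate set 7 libraries from Panx1 knockout mice against 7 from wild-type mice, and its genotype coefficient is one number for both treatments. All mice were male, and all carried floxed Panx1 alleles. The wild-type mice were Panx1fl/fl. In the knockout mice, Panx1myhc6 in the labels, the floxed gene was deleted under the Myh6 promoter, whose activity in the heart is limited to cardiomyocytes, so that other cells keep Panx1. Saline-treated mice (described as untreated in the design) gave 3 wild-type libraries, PNXM657, PNXM661 and PNXM649, and 3 knockout libraries, PNXM658, PNXM664 and PNXM663. Isoproterenol stimulates beta-adrenergic receptors, and mice that received 15 mg/kg/day of it over 14 days gave 4 wild-type libraries, PNXM644, PNXM647, PNXM645 and PNXM648, and 4 knockout libraries, PNXM654, PNXM656, PNXM655 and PNXM646. The other 9 libraries came from whole hearts after isoproterenol and are used for comparison alone.

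Pannexin 1 forms large-pore channels in the plasma membrane that release ATP and other small molecules. Released ATP acts on purinergic receptors of the same and of neighbouring cells, and in many tissues it attracts leukocytes. Cardiomyocytes meet their energy demand mostly by oxidising fatty acids in mitochondria, and under haemodynamic or adrenergic stress they re-express fetal genes, among them natriuretic peptides, beta myosin heavy chain and skeletal actin.

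Levels are FPKM, fragments per kilobase of gene scaled to the size of the library, as the authors deposited them. Differences are knockout minus wild-type on the log2(FPKM + 1) scale, adjusted for treatment, with their standard error from limma. That scale understates the change of genes with low levels. Reads assigned to genes numbered 21.03 to 31.9 M (mega-reads) per cardiomyocyte library, of which 4.85 to 16.96 M lay outside the mitochondrial chromosome. Genes of contraction and calcium handling, which define cardiomyocytes, were detected in every cardiomyocyte library, with no member of the list at 0. Markers of endothelial cells, fibroblasts, leukocytes and red cells were detected too. The first principal component held 43.0% of the variance. On it, PNXM654 (62.8), PNXM655 (46.6) and PNXM648 (43.0) stood apart from the other isoproterenol libraries, at -7.79 to 3.96. The first pair are knockout and PNXM648 is wild-type, so list medians and named genes that moved by over 1.5 times without these 3 libraries are also given without them.

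Panx1 (ENSMUSG00000031934, chromosome 9, 15005161 to 15045478) was lower in knockout cardiomyocytes under both treatments but was not absent. After saline it was 2.89, 1.57 and 2.17 FPKM in the wild-type libraries and 1.72, 2.0003 and 1.28 FPKM in the knockout libraries, so the genotypes overlapped. With isoproterenol it was 1.43, 1.89, 1.24 and 1.64 FPKM in wild-type and 0.9897, 1.005, 1.22 and 0.948 FPKM in knockout libraries, and every knockout library lay below every wild-type library. The genotype coefficient was -0.29 ± 0.10 (limma, unadjusted p = 0.0149, adjusted p = 0.484). An exact permutation of genotype within treatment, two-sided, gave p = 0.0143, or 0.0429 when adjusted over the 3 per-library measures tested that way (Panx1, mitochondrial percent and assigned reads). Leaving out each library in turn kept the coefficient between -0.35 and -0.24. Reads from exons that the deletion spares, and from cells in which the Myh6 driver is silent, also enter this value. Panx2, another pannexin gene, reached at most 0.344 FPKM in any cardiomyocyte library. Panx3 reached at most 0.0386 FPKM.

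No gene passed an adjusted p of 0.05 for the genotype coefficient. Limma called 0 of 11919 genes tested (0%), with a smallest adjusted p of 0.484, and voom on the recovered reads also called 0. At an unadjusted p below 0.05 there were 1215 genes (10.2%), of which 661 (5.55%) were higher and 554 (4.65%) lower in knockout cells, and voom placed 1313 genes there. Coefficients above 0 made up 50.5% of all genes, and their median was 0.00. All genes named from here on therefore missed the adjusted threshold, and their values are given as measurements.

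The saline and the isoproterenol comparison share no library, so each gives its own estimate for every gene. Of all genes, 33.5% were higher in knockout cells under both treatments, 30.3% were lower under both, 18.1% were higher after saline and lower after isoproterenol, and nearly all of the rest were the reverse. Across genes, which are not independent replicates, the differences under the 2 treatments had a Pearson r of 0.42 and a Spearman rank correlation of 0.44. Their interaction was called for 0 genes by limma (0%), with 294 (2.47%) at an unadjusted p below 0.05. The mitochondrially encoded genes lay far from the other genes, with positive differences after saline and negative ones after isoproterenol.

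**Figure D1:**
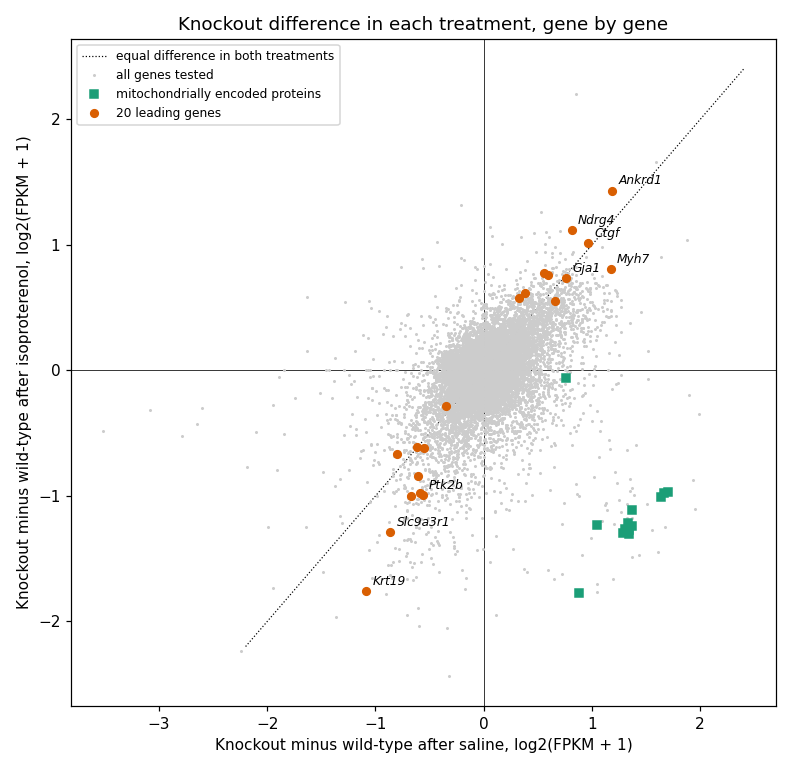
Each point is 1 gene, with its knockout minus wild-type difference in log2(FPKM + 1) after saline on the horizontal axis and after isoproterenol on the vertical axis, and the dotted line marks equal differences. The 20 leading genes (orange) lie in the quadrants where both treatments have the same sign, from Krt19 at -1.47 to Ankrd1 at 1.33 in the additive model. They were chosen by the smallest p of that model, whose coefficient averages both differences, which favours these quadrants. The 13 mitochondrially encoded genes (green) lie in the lower right quadrant.

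The 10 protein-coding genes with the smallest p among those higher in knockout cells included 3 genes of the fetal and hypertrophy list (Ctgf, Ankrd1 and Myh7) and the gap junction gene Gja1. Ctgf (chromosome 10, 24595442 to 24598683), a secreted matricellular protein and a target of the YAP and TEAD factors, had the smallest p of all genes. After saline it was 7.23, 12.6 and 4.69 FPKM in wild-type and 11.2, 21.0 and 16.8 FPKM in knockout libraries. Levels after isoproterenol were 9.09, 8.45, 11.4 and 8.53 FPKM in wild-type and 21.6, 23.1, 18.7 and 16.5 FPKM in knockout libraries. The genotypes overlapped after saline in 1 pair of libraries and did not overlap after isoproterenol. The coefficient was 0.99 ± 0.18 (unadjusted p = 7.81e-05, adjusted p = 0.484), with 0.97 ± 0.29 after saline and 1.01 ± 0.25 after isoproterenol.

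Ankrd1 (chromosome 19, 36111965 to 36119844) encodes a muscle ankyrin repeat protein of the sarcomere and nucleus that is induced by stretch. It was 57.3, 79.9 and 53.9 FPKM in wild-type and 112, 198 and 135 FPKM in knockout libraries after saline. Under isoproterenol its levels were 45.4, 39.4, 86.1 and 115 FPKM in wild-type and 254, 101, 176 and 219 FPKM in knockout libraries. Only wild-type PNXM648 and knockout PNXM656 crossed, and the coefficient was 1.33 ± 0.27 (unadjusted p = 0.000239). Myh7 (chromosome 14, 54970688 to 54994634), the beta myosin heavy chain of the fetal ventricle, was 2.82, 5.54 and 2.17 FPKM in wild-type and 7.88, 6.07 and 13.5 FPKM in knockout libraries after saline. The isoproterenol libraries had 3.56, 2.79, 7.21 and 7.13 FPKM in wild-type and 9.67, 6.51, 12.2 and 9.14 FPKM in knockout libraries. Knockout PNXM656 lay below wild-type PNXM645 and PNXM648, and the coefficient was 0.96 ± 0.24 (unadjusted p = 0.00104). Gja1 (chromosome 10, 56377300 to 56390419) encodes connexin 43, the main gap junction protein of ventricular muscle. It was 27.4, 30.2 and 17.6 FPKM in wild-type and 49.9, 43.2 and 34.5 FPKM in knockout libraries after saline. In isoproterenol-treated mice it was 32.1, 23.6, 31.0 and 40.9 FPKM in wild-type and 76.1, 44.5, 57.7 and 39.8 FPKM in knockout libraries. The groups crossed there in PNXM648 and PNXM646, and the coefficient was 0.75 ± 0.18 (unadjusted p = 0.00108).

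**Figure D2:**
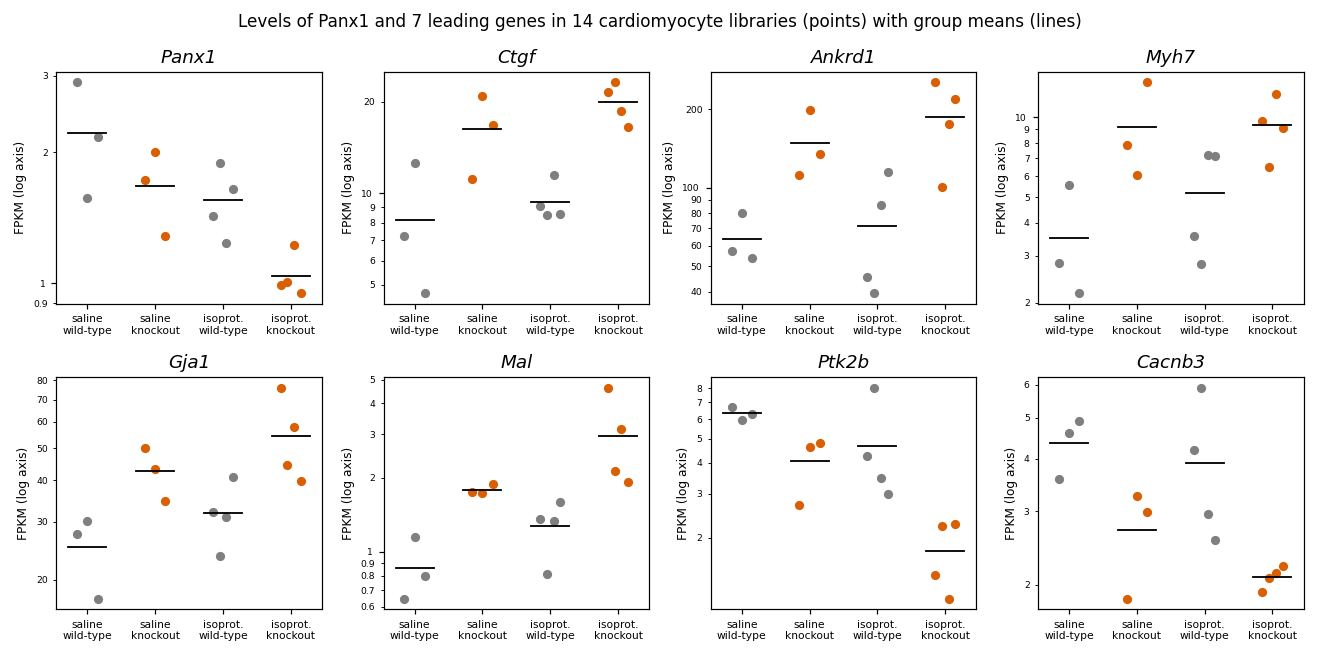
Points are FPKM in the 14 cardiomyocyte libraries on a log axis, grouped by treatment and genotype (grey wild-type, orange knockout), and lines are group means. Ctgf, Ankrd1, Myh7, Gja1 and Mal have higher knockout means under both treatments, whereas Panx1, Ptk2b and Cacnb3 have lower ones.

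The other 6 leading genes on the higher side were more varied in function. Mal, a raft-associated proteolipid, was 0.647 to 1.15 FPKM in wild-type and 1.73 to 1.88 FPKM in knockout libraries after saline. After isoproterenol its ranges were 0.816 to 1.59 and 1.92 to 4.63 FPKM, so no library crossed under either treatment (0.69 ± 0.14). Ankrd23, another muscle ankyrin repeat gene, did not cross either (0.68 ± 0.18). Its highest wild-type and lowest knockout levels were 0.939 and 1.28 FPKM after saline and 1.52 and 1.63 FPKM after isoproterenol. Ndrg4, a member of a family expressed in heart and brain, differed by 0.99 ± 0.25, and Art3, a muscle ADP-ribosyltransferase homologue, by 0.59 ± 0.15. The mitochondrial translation release factor Mtrf1 (0.52 ± 0.13) and the ephrin receptor Epha4 (0.47 ± 0.12) completed the list.

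Promoters are shown for 4 genes of the fetal and hypertrophy list whose coefficients were among its larger ones and for Gja1, each with at least 1 match. RefSeq windows on GRCm38.p6 were found for 24 of 31 genes looked up, and none was found for Ctgf, Ptk2b, Mbp, Hist1h4m, Slc38a1, Slc39a4 and Krt19. Each line gives the 250 bases before an annotated start, 5′ to 3′ on the strand of the gene. Capitals mark matches on either strand. The TEAD motif searched was GGAATG, the GATA motif was AGATAA, and the CArG box is the serum response factor element.
Ankrd1, chr19:36119845-36120094, minus strand: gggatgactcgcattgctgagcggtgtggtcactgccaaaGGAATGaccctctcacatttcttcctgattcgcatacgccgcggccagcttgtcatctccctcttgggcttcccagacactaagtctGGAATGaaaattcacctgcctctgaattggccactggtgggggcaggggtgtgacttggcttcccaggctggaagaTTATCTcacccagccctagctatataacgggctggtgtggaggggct
Myh7, chr14:54994627-54994876, minus strand: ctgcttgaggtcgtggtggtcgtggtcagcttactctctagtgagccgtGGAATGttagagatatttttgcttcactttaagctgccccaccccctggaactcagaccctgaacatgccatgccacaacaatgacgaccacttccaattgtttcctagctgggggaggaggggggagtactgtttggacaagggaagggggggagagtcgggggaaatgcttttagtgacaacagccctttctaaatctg
Nppb, chr4:147985650-147985899, plus strand: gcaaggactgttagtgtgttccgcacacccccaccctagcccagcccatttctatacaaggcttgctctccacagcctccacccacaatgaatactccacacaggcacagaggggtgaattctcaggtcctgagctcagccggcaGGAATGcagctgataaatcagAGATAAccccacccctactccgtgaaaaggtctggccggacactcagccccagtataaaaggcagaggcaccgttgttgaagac
Acta1, chr8:123894776-123895025, minus strand: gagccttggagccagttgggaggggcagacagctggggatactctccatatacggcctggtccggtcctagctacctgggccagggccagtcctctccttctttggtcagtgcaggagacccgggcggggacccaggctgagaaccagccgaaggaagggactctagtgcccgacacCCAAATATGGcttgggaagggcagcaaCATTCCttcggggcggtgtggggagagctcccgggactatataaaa
Gja1, chr10:56377050-56377299, plus strand: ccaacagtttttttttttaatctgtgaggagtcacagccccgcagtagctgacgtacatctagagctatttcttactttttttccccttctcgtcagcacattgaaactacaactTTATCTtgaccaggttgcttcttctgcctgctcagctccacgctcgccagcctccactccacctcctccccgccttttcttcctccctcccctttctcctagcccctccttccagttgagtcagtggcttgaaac
The Ankrd1 window holds 2 TEAD matches and 1 GATA match. The Nppb window holds a TEAD and a GATA match, the Acta1 window a TEAD match and a CArG box, the Myh7 window a TEAD match and the Gja1 window a GATA match. No match overlaps another. A second annotated start of Myh7, on the same strand, has none of these letters in its window. These windows were chosen for their matches. Of the 13 fetal and hypertrophy genes with a RefSeq window, 7 had a match in at least 1 window, while Nppa, Xirp2, Rcan1, Enah, Nmrk2 and Hspb7 had none. Over the 37 windows of all 24 genes, 10 (27.0%) held the TEAD motif, 5 (13.5%) the GATA motif and 2 (5.41%) a CArG box. Of all 32851 promoter windows of that length, 12.6% hold the TEAD motif, 9.99% the GATA motif and 1.47% a CArG box. A match is a stretch of letters and not evidence of binding.

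The 10 leading genes on the lower side included several known from nerve, leukocytes or epithelia. Ptk2b (chromosome 14, 66153257 to 66281052), the calcium-sensitive tyrosine kinase Pyk2, was 6.71, 5.93 and 6.32 FPKM in wild-type and 2.70, 4.64 and 4.82 FPKM in knockout libraries after saline. After isoproterenol it was 4.25, 8.03, 3.47 and 2.99 FPKM in wild-type and 1.41, 2.22, 1.14 and 2.27 FPKM in knockout libraries. No library crossed under either treatment, and the coefficient was -0.81 ± 0.18 (unadjusted p = 0.000577). Cacnb3 (chromosome 15, 98632220 to 98644530), an auxiliary beta subunit of voltage-gated calcium channels, was 3.57, 4.61 and 4.92 FPKM in wild-type and 1.86, 3.25 and 2.98 FPKM in knockout libraries after saline. Levels after isoproterenol were 4.19, 5.90, 2.96 and 2.56 FPKM in wild-type and 1.93, 2.07, 2.14 and 2.22 FPKM in knockout libraries. It did not cross either, and the coefficient was -0.59 ± 0.14 (unadjusted p = 0.000871).

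Among these 10 lower genes the largest coefficient belonged to Krt19, a keratin of epithelial and mesothelial cells, at -1.47 ± 0.40. It was 12.1, 36.4 and 38.3 FPKM in wild-type and 5.26, 12.2 and 23.4 FPKM in knockout libraries after saline. Under isoproterenol its levels were 33.1, 59.9, 16.8 and 11.2 FPKM in wild-type and 8.04, 5.04, 4.25 and 11.1 FPKM in knockout libraries. The genotypes overlapped after saline and were separated by a narrow margin after isoproterenol. Slc9a3r1, the membrane scaffold NHERF1, followed at -1.11 ± 0.28. Mbp, which encodes myelin basic protein, was at -0.86 ± 0.21, the leukocyte tetraspanin gene Tspan32 at -0.74 ± 0.20 and the zinc importer Slc39a4 at -0.72 ± 0.19. The glutamine transporter Slc38a1 was at -0.61 ± 0.16, and Gpd2, the mitochondrial glycerol-3-phosphate dehydrogenase, at -0.31 ± 0.08. Hist1h4m, a histone H4 gene, was at -0.81 ± 0.20, and its value is uncertain because near-identical histone genes can share reads. Igkv4-59, an immunoglobulin kappa segment named after its values were seen, had the second smallest p of all genes. It lay at -1.42 ± 0.27, with 0.176 to 5.02 FPKM in the wild-type libraries and 0 to 0.752 FPKM in the knockout libraries, and it belongs to a multigene family whose members can share reads.

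Few genes separated fully by genotype. Under both treatments the lowest knockout library exceeded the highest wild-type library in 10 genes (0.0839% of those tested), and the reverse held in 9 genes (0.0755%). Random genotype labels within treatment would separate a gene in either of these directions with a probability of 0.00143. The shares seen are similar to that, so the genes named here as separated are described and not called. In 34 genes (0.285%) the groups were separate under both treatments but in opposite directions. Besides Mal and Ankrd23, the separated higher genes included Lrrc8a (0.35 ± 0.11), the essential subunit of volume-regulated anion channels, which are relatives of the pannexins. Lrrc8a was 1.60 to 1.75 FPKM in wild-type and 1.82 to 3.30 FPKM in knockout libraries after saline, and 2.57 to 2.73 and 2.89 to 4.74 FPKM after isoproterenol. Ttl, which restores the terminal tyrosine of tubulin, lay at 0.22 ± 0.07, the cAMP-activated exchange factor gene Rapgef4 at 0.26 ± 0.08 and the ubiquitin ligase scaffold Cul2 at 0.31 ± 0.11. Besides Ptk2b and Cacnb3, the separated lower genes included the formin Diap1 (-0.47 ± 0.13), the chemoattractant gene Il16 (-0.46 ± 0.15), the nuclear body gene Pml (-0.39 ± 0.11) and the exchange factor gene Vav2 (-0.30 ± 0.08). Leaving out a library can only keep or raise these counts, since fewer libraries then have to be separate. Leaving out 1 library gave 11 to 63 higher and 10 to 39 lower genes, with 63 and 33 without PNXM648, and without PNXM654, PNXM655 and PNXM648 together they were 94 and 43.

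Gene lists were described by their counts and medians beside those of all genes tested. At an unadjusted p below 0.05, 5.55% of all genes were higher and 4.65% were lower in knockout cells. All 22 genes of contraction and calcium handling were higher in knockout cells, against 50.5% of all genes, and 21 of them were higher under both treatments, against 33.5%. Their median coefficient was 0.71, and 9 of 22 had an unadjusted p below 0.05. Tnnt2, cardiac troponin T, lay at 0.82 ± 0.29, the sarcomeric Mybpc3 at 0.88 ± 0.31, the calcium pump inhibitor Pln at 0.81 ± 0.31 and the calcium store protein Casq2 at 0.88 ± 0.34. Myh6, the alpha myosin heavy chain and the source of the driver, lay at 0.65 ± 0.31. In the mean log2(FPKM + 1) of the list, saline libraries ranged from 4.998 to 5.63 in wild-type and from 6.16 to 6.34 in knockout mice. Isoproterenol libraries ranged from 5.76 to 7.28 and from 5.86 to 7.81, with PNXM648 the highest wild-type and PNXM654 the highest knockout library. In bulk libraries fewer cardiomyocytes and less RNA per cardiomyocyte cannot be told apart. The median was 0.57 without PNXM654, PNXM655 and PNXM648.

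**Figure D3:**
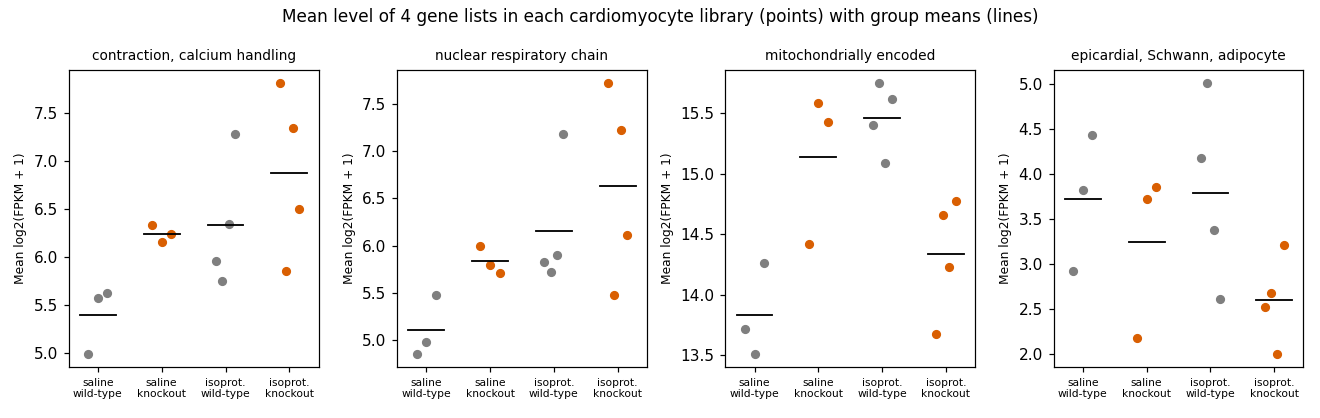
Points are the mean log2(FPKM + 1) of the members tested of 4 gene lists in each cardiomyocyte library, and lines are group means. Contraction genes separate the genotypes after saline (4.998 to 5.63 against 6.16 to 6.34) and overlap after isoproterenol, and mitochondrially encoded genes lie in opposite order under the 2 treatments.

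The fetal and hypertrophy genes had 12 of 13 members higher in knockout cells, against 50.5% of all genes, with a median of 0.52. Of these, 9 had an unadjusted p below 0.05, against 5.55% of all genes. The 9 include Ctgf, Ankrd1 and Myh7, which were named as leading genes by their p in these same libraries. Acta1, skeletal actin, lay at 1.22 ± 0.38, and was 12.7, 30.9 and 14.7 FPKM in wild-type and 40.6, 61.4 and 79.2 FPKM in knockout libraries after saline. The isoproterenol libraries had 21.8, 28.1, 21.8 and 69.4 FPKM in wild-type and 106, 20.5, 96.1 and 57.1 FPKM in knockout libraries, which overlapped. Nppb, B-type natriuretic peptide, was named after its values were seen, as the largest coefficient of the list (1.62 ± 0.54). It was 18.8, 17.8, 19.5 and 79.8 FPKM in wild-type and 484, 37.2, 202 and 72.4 FPKM in knockout libraries after isoproterenol. PNXM654 and PNXM655 were its highest libraries, and the wild-type PNXM648 lay above 2 knockout libraries. Nppa, atrial natriuretic peptide, was the member below 0, at -0.02 ± 0.44.

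Nuclear genes of mitochondrial energy metabolism were higher in knockout cells with few exceptions. Of the nuclear respiratory chain genes 42 of 42 were higher, all of them under both treatments, with a median of 0.57. At an unadjusted p below 0.05 there were 7 of them, against 5.55% of all genes. Examples were Cox5a (0.74 ± 0.32) and Cox6c (0.78 ± 0.35) of cytochrome oxidase, the Rieske protein gene Uqcrfs1 (0.75 ± 0.32) and Ndufb5 of complex I (0.71 ± 0.31). Of the genes of pyruvate entry and the citric acid cycle 24 of 24 were higher (median 0.50), led by the pyruvate carrier Mpc1 (0.80 ± 0.27) and the pyruvate dehydrogenase subunit Dlat (0.52 ± 0.20). Fatty acid oxidation had 27 of 29 genes higher (median 0.51). Ucp3, a mitochondrial carrier that follows fatty acid supply, lay at 0.88 ± 0.27, the thioesterase Acot2 at 0.58 ± 0.20 and the fatty acid transporter Slc27a1 at 0.57 ± 0.21. Among regulators 15 of 19 were higher (median 0.28), including the coactivator Ppargc1a (0.41 ± 0.15), the kinase subunit Prkaa2 (0.43 ± 0.18) and the retinoid receptor Rxrg (0.64 ± 0.28). Glycolysis and glucose uptake had 19 of 26 higher (median 0.16). There the insulin-responsive transporter Slc2a4 (0.74 ± 0.34) and Pfkm (0.64 ± 0.30), the muscle phosphofructokinase, were on the higher side, and the lactate exporter Slc16a3 (-0.44 ± 0.20) on the lower (-0.26 without PNXM647), and the median was 0.06 without PNXM654 and 0.32 without PNXM648. Without PNXM654, PNXM655 and PNXM648 the medians of the respiratory chain, citric acid cycle and fatty acid lists were 0.38, 0.35 and 0.38, and Uqcrfs1 lay at 0.50.

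These metabolic lists moved with the contraction list. With the mean level of the contraction genes in each library as a further covariate, an alternative added after the data were seen, the medians were -0.15 for the respiratory chain, -0.08 for the citric acid cycle and -0.04 for fatty acid oxidation. The contraction list itself went to 0.02, which the covariate brings about by its construction, and the fetal list to 0.19. Under that covariate Ctgf lay at 1.02 ± 0.22 and Epha4 at 0.52 ± 0.15, at least 90% of their values without it. Ankrd1 lay at 0.91 ± 0.24, Myh7 at 0.65 ± 0.24, Gja1 at 0.51 ± 0.17 and Ndrg4 at 0.50 ± 0.17. All 20 leading genes kept their sign and an unadjusted p below 0.05, but they were chosen by the smallest p in these same libraries, which favours this. Of all 11919 genes 522 had such a p and 0 were called (smallest adjusted p = 0.875). Whether the share of cardiomyocyte RNA accounts for the metabolic values was not tested.

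**Figure D4:**
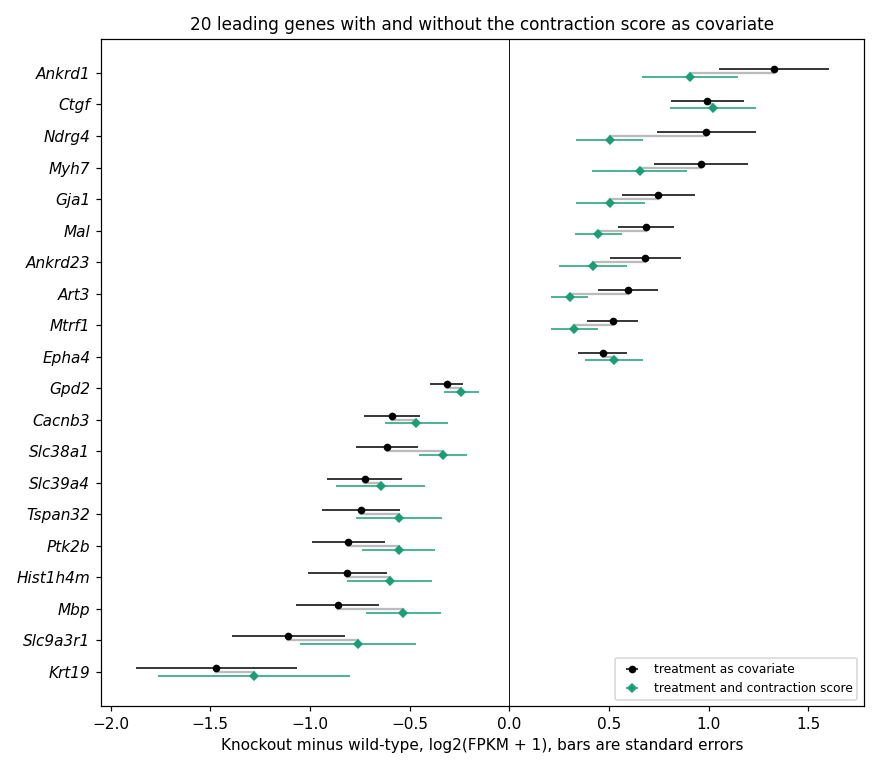
Points are the knockout minus wild-type coefficients of the 20 leading genes in log2(FPKM + 1), with treatment as the covariate (black) and with the contraction score added (green), and bars are standard errors. Ctgf (0.99 and 1.02) and Epha4 (0.47 and 0.52) lie at nearly the same place in both models, while Ndrg4 moves from 0.99 to 0.50.

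The mitochondrial genome did not follow these nuclear genes, and its genotype difference had opposite signs under the 2 treatments. All 13 mitochondrially encoded protein genes were higher in knockout cells after saline (median 1.34) and lower after isoproterenol (median -1.23). Their additive median was -0.12, with 4 of 13 above 0, and it turned to 0.08 without PNXM654, to 0.02 without PNXM647 and to 0.39 without PNXM654, PNXM655 and PNXM648. For mt-Nd5, a complex I subunit, the coefficient was -0.19 ± 0.47, and 12 of the 13 genes had an unadjusted interaction p below 0.05. Mitochondrial reads as a percent of assigned reads averaged 59.0 ± 5.2 (SD, n = 3) in wild-type and 75.9 ± 5.8 (SD, n = 3) in knockout libraries after saline. After isoproterenol they averaged 77.2 ± 1.8 (SD, n = 4) and 61.1 ± 10.6 (SD, n = 4). The treatment-adjusted genotype difference was -1.92 percentage points (exact permutation within treatment, two-sided, p = 0.746), and it turned to 1.89 without PNXM654 and to 5.62 without PNXM654, PNXM655 and PNXM648. The genotype difference after isoproterenol minus that after saline was -33.1 points (exact permutation p = 0.00143, the smallest that 1400 permutations can give). Nuclear pseudogenes of the mitochondrial genome can share reads with these genes.

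Genes of the ATP and adrenergic signalling around the channel were mixed. Of 14 pannexin, connexin and purinergic genes 7 were higher (median 0.04). P2ry2, a receptor for extracellular ATP and UTP, lay at 0.50 ± 0.14 and after saline was 2.16, 3.22 and 4.18 FPKM in wild-type and 4.83, 5.23 and 6.20 FPKM in knockout libraries. In isoproterenol-treated mice it was 4.55, 5.13, 5.93 and 6.77 FPKM in wild-type and 7.49, 9.32, 8.24 and 5.63 FPKM in knockout libraries. Knockout PNXM646 alone lay within the wild-type range. Of 20 adrenergic and cAMP genes 11 were higher (median 0.10). Adrb1, the beta-1 receptor through which isoproterenol acts on cardiomyocytes, lay at 0.50 ± 0.14, with 1.42, 1.66 and 1.56 FPKM in wild-type and 2.50, 2.81 and 2.83 FPKM in knockout libraries after saline. With isoproterenol it was 1.35, 1.67, 2.48 and 2.35 FPKM in wild-type and 4.91, 2.33, 3.38 and 2.16 FPKM in knockout libraries, so the groups overlapped there. The adenylyl cyclase Adcy5 (0.49 ± 0.21) and the receptor kinase Grk5 (0.26 ± 0.09) were also on the higher side. Arrb2, an arrestin that ends receptor signalling, was on the lower side (-0.47 ± 0.18). Of 19 YAP and TEAD targets 11 were higher with a median of 0.00, and Ctgf and Ankrd1 were the 2 with an unadjusted p below 0.05 on the higher side. Cyr61, the relative of Ctgf, lay at 0.35 ± 0.18, and Dock5 at -0.30 ± 0.13. Without PNXM654, PNXM655 and PNXM648 the medians of the channel, adrenergic and YAP lists were 0.12, 0.05 and 0.08.

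Immune and antigen presentation genes lay mostly on the lower side. Of 29 interferon and antigen presentation genes 27 were lower, against 49.5% of all genes, with a median of -0.28 and 9 at an unadjusted p below 0.05. Tap1, the peptide transporter, lay at -0.31 ± 0.10, the immunoproteasome subunit Psmb9 at -0.34 ± 0.13, the guanylate binding protein Gbp2 at -0.52 ± 0.20 and the leukocyte factor Irf8 at -0.38 ± 0.14. Of 18 inflammasome and cell death genes, a group linked to pannexin 1, 16 were lower (median -0.24), among them Gsdmd (-0.34 ± 0.13), the pore former of pyroptosis, Casp8 (-0.38 ± 0.15) and the DNA sensor Aim2 (-0.30 ± 0.13). Of 11 neutrophil recruitment genes 6 were lower (median -0.11), with the complement component C3 at -0.94 ± 0.38 and the chemokine Ccl5 at -0.60 ± 0.24. The endothelial adhesion molecule Vcam1 lay at 0.32 ± 0.16. Without PNXM654, PNXM655 and PNXM648 the inflammasome and recruitment medians were -0.08 and -0.02, and Ccl5 lay at -0.26, Aim2 at -0.18 and Psmb9 at -0.22. The acute cytokine feedback gene Socs3 (-0.50 ± 0.16), from the immediate early list (15 of 21 lower, median -0.11, or -0.19 without the 3 libraries), lay on the lower side too.

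Leukocyte markers lay mostly on the lower side as well. All 15 neutrophil markers were lower (median -1.08), none of them at an unadjusted p below 0.05, and their summed level spanned 74.7 to 463 and 55.2 to 94.6 FPKM in wild-type and knockout libraries after saline. After isoproterenol it spanned 42.4 to 3356 and 28.04 to 1004 FPKM. At most 5 neutrophil markers were at 0 in any cardiomyocyte library, among Ngp, Camp, Elane, Mpo, Ly6g and Il1r2. All 13 lymphocyte markers were lower (median -0.71), led by Cd79a (-0.95 ± 0.43) and Cd79b (-0.88 ± 0.40), which encode signalling chains of the B cell receptor. Their summed level was 140 to 465 FPKM in wild-type and 105 to 317 FPKM in knockout libraries after saline, and 83.4 to 278 and 39.3 to 138 FPKM after isoproterenol. Macrophage markers were lower in 15 of 18 cases (median -0.21), with the resident macrophage receptor Timd4 at -0.99 ± 0.35. Their summed level was 218 to 674 and 261 to 450 FPKM after saline and 242 to 423 and 251 to 307 FPKM after isoproterenol. The neutrophil median was -0.62 without PNXM647 and -0.49 without PNXM654, PNXM655 and PNXM648, the lymphocyte median -0.35 without PNXM657 and the macrophage median -0.09 without PNXM649. The part of leukocyte content in the lower immune genes was not tested.

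The lists of epicardial and of neutrophil markers had the lowest medians. All 7 tested epicardial, Schwann and adipocyte markers were lower (median -1.15), and 5 had an unadjusted p below 0.05, against 4.65% of all genes. Those 5 were Krt19, Upk3b (-1.40 ± 0.47), Msln (-1.31 ± 0.45), Upk1b (-1.15 ± 0.43) and Wt1 (-0.62 ± 0.26), all genes of the epicardial mesothelium, while the adipocyte genes Cfd (-0.19 ± 0.57) and Car3 (-0.07 ± 0.42) lay near 0. Msln was 35.6, 73.4 and 52.5 FPKM in wild-type and 13.2, 27.8 and 60.1 FPKM in knockout libraries after saline. After isoproterenol it was 77.3, 115, 31.5 and 17.2 FPKM in wild-type and 15.0, 12.4, 6.97 and 31.4 FPKM in knockout libraries. The genotypes overlapped under both treatments. The summed level of the list spanned 107 to 249 and 42.3 to 205 FPKM after saline and 68.0 to 443 and 31.6 to 107 FPKM after isoproterenol, in wild-type and knockout libraries in that order. Among the members at 0 in some libraries were the adipocyte genes Plin1 and Retn, and no mesothelial gene was. With no filter on low levels, which also takes in markers at low levels, the median of the list was -0.08.

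Endothelial and mural markers were on the higher side in the additive model. Of 16 endothelial markers 15 were higher (median 0.16), led by Emcn (0.36 ± 0.14) and Vwf (0.45 ± 0.21), and of 10 pericyte and smooth muscle markers 8 were (median 0.28), led by Cspg4 (0.46 ± 0.17) and Pdgfrb (0.36 ± 0.15). Of the 16 endothelial markers 8 were higher after saline and lower after isoproterenol, and their medians were 0.42 and 0.00. The endothelial median was 0.27 without PNXM654 and 0.31 without PNXM654, PNXM655 and PNXM648, where Vwf lay at 0.69. The mural median was 0.17 without PNXM647. Their summed levels overlapped between genotypes after isoproterenol, at 838 to 1144 and 656 to 1085 FPKM for endothelial and 111 to 198 and 151 to 234 FPKM for mural markers. After saline the endothelial sums did not overlap, at 445 to 585 FPKM in wild-type and 613 to 783 FPKM in knockout libraries. The mural sums overlapped after saline too, at 102 to 134 and 115 to 166 FPKM. Fibroblast markers had 7 of 14 higher and an additive median of -0.01, which averages differences of opposite sign. Of the 14, 10 were higher after saline and lower after isoproterenol (medians 0.39 and -0.36), and 5 had an unadjusted interaction p below 0.05. Matrix genes had 10 of 25 higher (median -0.01). Without the 3 libraries the fibroblast and matrix medians were 0.14 and 0.08. Red cell genes were lower in 9 of 9 cases (median -0.70), but 6 of the 9 were higher after saline, and the median was -0.40 without PNXM647, -1.05 without PNXM664 and -0.11 without PNXM654, PNXM655 and PNXM648.

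**Figure D5:**
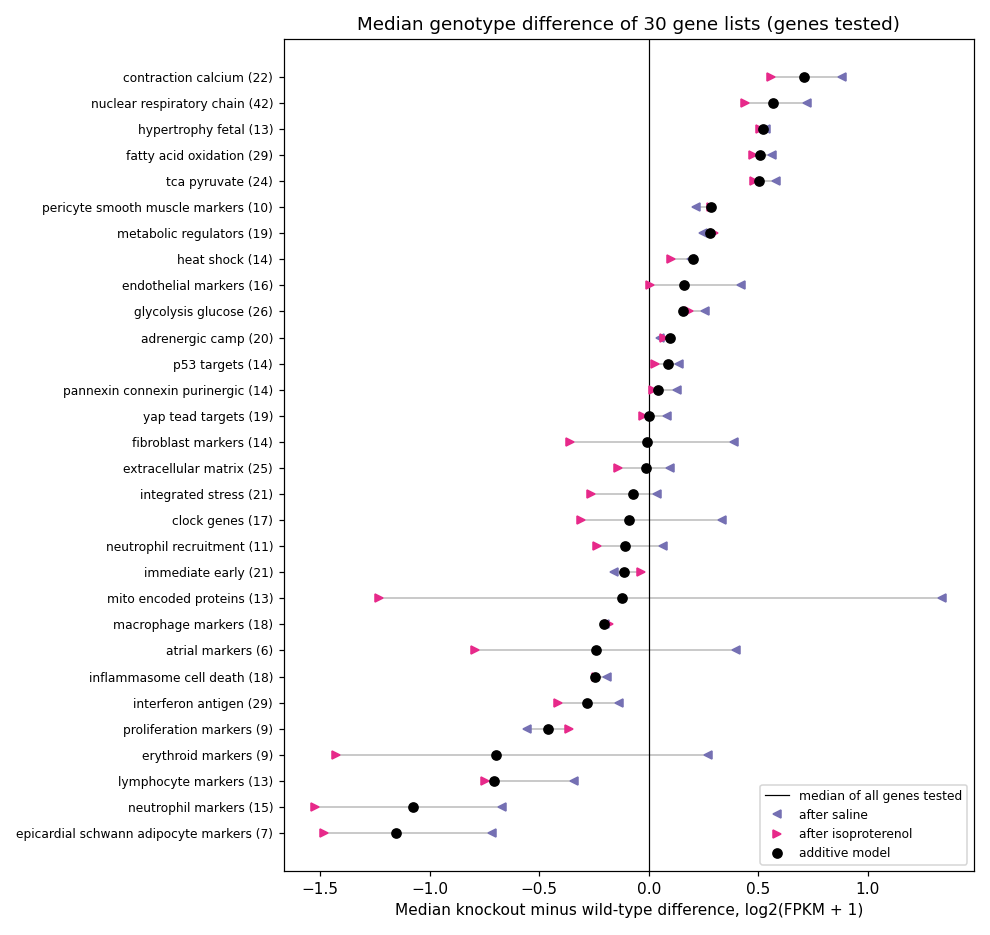
Each row is 1 of 30 gene lists, with the number of genes tested in parentheses and the median knockout minus wild-type difference in log2(FPKM + 1) on the horizontal axis for the additive model (circles), saline (left-pointing triangles) and isoproterenol (right-pointing triangles). Contraction, respiratory chain, fetal, fatty acid and citric acid cycle genes lie between 0.50 and 0.71, mitochondrially encoded genes span both signs, and neutrophil and epicardial markers lie below -1.

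Lists of stress, clock, proliferation and atrial genes had medians between -0.46 and 0.20. Of 14 p53 targets 10 were higher (median 0.09), with Ccng1 (0.61 ± 0.21), Gadd45g (0.44 ± 0.16) and Aen (0.28 ± 0.09) at an unadjusted p below 0.05. Of 21 integrated stress genes 12 were lower (median -0.07), with the proline synthesis gene Aldh18a1 (-0.32 ± 0.09), the asparagine synthetase Asns (-0.33 ± 0.13) and the serine synthesis gene Phgdh (-0.68 ± 0.30) on that side and the stress cytokine Gdf15 (0.35 ± 0.14, or 0.17 without PNXM654, PNXM655 and PNXM648) on the other. Of 14 heat shock genes 10 were higher (median 0.20), and the median was 0.09 without PNXM654, 0.11 without PNXM657, 0.06 without PNXM654, PNXM655 and PNXM648, and -0.06 with the contraction score as covariate. The 17 clock genes had a median of 0.34 after saline and -0.31 after isoproterenol, and none had an unadjusted p below 0.05 in the additive model. All 9 proliferation genes tested were lower (median -0.46), with none below that p, and the median was -0.26 without PNXM657. All 6 atrial genes tested were lower in the additive model (median -0.24), also with none below it. This sign was that of the isoproterenol libraries, since 5 of the 6 were higher after saline and lower after isoproterenol, with medians of 0.40 and -0.80. Leaving out 1 library moved the atrial median from -0.65 (without PNXM657) to 0.00 (without PNXM649), and without PNXM654, PNXM655 and PNXM648 it was -0.13.

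The 9 whole-heart libraries, all after isoproterenol, give the same genes in libraries the model did not use, but Panx1 went against their labels there. It was 0.469 to 0.915 FPKM in the 4 libraries labelled knockout and 0.338 to 0.512 FPKM in the 5 labelled wild-type, so the directions that follow rest on labels that this gene does not bear out. Limma called 0 of 10189 genes (0%), with 652 (6.40%) at an unadjusted p below 0.05. A set of 30 genes was looked up, namely Panx1, Myh6 and the genes named above as leading or as fully separated. The leading and separated genes were chosen from the cardiomyocyte values. Of the 30, 24 entered this fit and 0 were called. The knockout-labelled PNXM229 stood apart in the mean log2(FPKM + 1) of the fetal list, at 7.01. The other knockout-labelled libraries had 5.51 to 5.71 and the wild-type ones 5.12 to 5.75. Its summed YAP and TEAD targets were 1946 FPKM, against 571 to 805 FPKM in the other knockout-labelled libraries. Ctgf lay at 1.07 ± 0.47 (unadjusted p = 0.0444, adjusted p = 0.779), Ankrd1 at 0.92 ± 0.39 (unadjusted p = 0.0399, adjusted p = 0.743) and Nppb at 1.04 ± 0.45 (unadjusted p = 0.0402, adjusted p = 0.743). Ptk2b had the opposite sign to the cardiomyocytes, at 0.43 ± 0.10 (unadjusted p = 0.00109, adjusted p = 0.407), and so did the medians of the contraction (-0.24), respiratory chain (-0.22), citric acid cycle (-0.25) and fatty acid (-0.32) lists. The difference between whole hearts and cardiomyocytes was not tested here.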

How the data were processed

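The authors deposited FPKM for 46078 genes in 23 libraries, of which 46077 were used and 1 misaligned line was left out. Per the labels' protocols, total RNA was sequenced by Novogene. Per the submitters' processing notes, reads were aligned with HISAT2 2.0.5 and counted with featureCounts. The genome build and the use of strand are not given in the sources used here. Deposited coordinates overlap those of GRCm38 (GENCODE M21) for 99.9% of 45142 shared identifiers. Identifiers restored 27 symbols that the table holds as dates. Converted with gene length, all 425611 deposited FPKM values checked came within 2.15e-06 of whole reads, with a library size 0.426 to 1.39 times the assigned reads in cardiomyocytes, which shows that a scaling between libraries is built in.

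WHO in a header was read as whole heart. Columns carry no replicate number, and only distinct identifiers in the headers point to separate animals, so p-values measure the spread between libraries, which may be technical. No batch is named in the labels.

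In R 4.3.3, genotype was fitted on log2(FPKM + 1) by limma 3.58.1, with treatment as covariate and a trend in the moderation. Genes needed an FPKM of at least 1 in at least 3 of 14 cardiomyocyte libraries (at least 4 of 9 for whole hearts). Tests were two-sided with Benjamini-Hochberg adjustment over all genes tested, and a gene was called at an adjusted p below 0.05. Genotype differences within each treatment and the interaction came from a fit of 4 group means. Panx1, the mitochondrial percent and the assigned reads were tested by exact permutation of genotype within treatment. The fit was tested on simulated data with counts drawn independently for each gene. That test does not cover variation that many genes of a library share, such as that of the first principal component.

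Panx1 and Myh6 were always named. Besides these, the 10 protein-coding genes with the smallest p in each direction (higher genotype averaging 1 FPKM or more, no placeholder symbol), up to 4 members of each list by p, and up to 6 fully separated genes in each direction were named. The genes and the 30 lists were chosen with earlier results of these data known, so no list was tested as a set.

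Alternatives covered 4 other scalings, array weights, robust moderation, restriction to protein-coding genes and pseudocounts of 0.5 and 0.1. A stricter filter (FPKM 5), no filter, the mean of both within-treatment genotype differences and genotype alone were also run. Further alternatives were the mitochondrial percent as covariate, voom on recovered reads and leaving out each library. Leaving out 3 libraries together and the contraction score as covariate were added after the data were seen. Promoter sequences are from RefSeq on GRCm38.p6. Figures were drawn with Python 3.11.15 and matplotlib 3.10.9.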

Additional observations from a re-analysis of the deposited data

Results flagged for a closer look

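Among groups of 4 libraries, 1 library lay far from the other 3 in 21 of 286 cases examined (7.34%). Chance gives about 1 in 20 for independent, normally distributed values. The FPKM were not put on a log scale and many of the genes vary together, so that rate need not hold here. The wild-type library PNXM648 stood apart for 7 of the genes named. It was the high one with 69.4 FPKM of Acta1, 5.20 FPKM of Ucp3, 29.6 FPKM of Ndufb5, 49.7 FPKM of Slc2a4, 513 FPKM of Cryab and 389 FPKM of Eno3, and the low one with 10.3 FPKM of Gbp2. The wild-type library PNXM647 stood above its group with 12.7 FPKM of Diap1, 7.61 FPKM of Casp8, 7.33 FPKM of Phgdh, 1.55 FPKM of Dock5 and 105000 FPKM of mt-Nd5. The wild-type library PNXM645 was low in the clock gene Npas2 (0.0949 FPKM).

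Among isoproterenol knockout libraries, PNXM656 stood above the others with 14.7 FPKM of Cd79a, 13.5 FPKM of Cd79b, 3.91 FPKM of Ly6g, 11.8 FPKM of Mmp9 and 1.78 FPKM of Gpd2. PNXM646 differed from its group in Slc39a4 (0.583 FPKM) and Fbln1 (39.0 FPKM), and PNXM655 in Myl7 (32.6 FPKM).

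The knockout difference itself differed between treatments for 2 per-library measures by exact permutation. The difference after isoproterenol minus that after saline was -33.1 points in mitochondrial percent (exact permutation p = 0.00143, the smallest possible) and 7.92 M (mega-reads) in assigned reads (exact permutation p = 0.00429). For mt-Atp8 and mt-Nd5 the genotypes did not overlap under either treatment, with knockout levels higher after saline and lower after isoproterenol. The same difference was -2.27 for mt-Atp8 (limma, unadjusted p = 0.000163, adjusted p = 0.190) and -2.58 for mt-Nd5 (unadjusted p = 0.000545, adjusted p = 0.255) on the log2(FPKM + 1) scale, so neither passed the adjusted threshold.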

How the results depend on the processing

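No alternative raised the count of called genes above 1. It was 1 without the scaling between libraries and 0 to 1 when 1 library was left out, and the gene was Igkv4-59 both times. The count for the interaction was 10031 without the scaling between libraries, an alternative that sets totals equal while the mitochondrial share differs between groups, and 0 to 1 when 1 library was left out. Fully separated genes numbered 19 higher and 18 lower with no filter, 1 and 5 with a filter of FPKM 5, 0 and 1 without the scaling between libraries, and 94 and 43 without PNXM654, PNXM655 and PNXM648. When 1 library was left out they numbered 11 to 63 and 10 to 39, and leaving out libraries can only keep or raise these counts. The genotype difference in mitochondrial percent was -4.45 to 1.89 points when 1 library was left out and 5.62 points without those 3 libraries. The 20 leading genes kept their sign under every alternative run on them, with adjusted p-values of 0.0942 to 0.999. Their choice by the smallest p in the same libraries favours this. Of 141 named genes 9 changed sign somewhere. With the contraction score as covariate these were Slc2a4 (-0.0030), Pfkm (-0.012), Cryab (-0.055), Eno3 (-0.094), Dkk3 (0.12) and mt-Nd5 (0.027). Without the 3 libraries they were mt-Nd4l (0.21), mt-Atp8 (0.14) and mt-Nd5 (0.39), and with 1 library left out Stard10 (-0.49 to 0.060, positive without PNXM649) and mt-Nd5 (-0.42 to 0.064, positive without PNXM654). The cause of these moves was not tested beyond what the alternatives leave out by construction. No scaling moved the median additive coefficient of all genes by more than 0.1. Opposite shifts under the 2 treatments cancel in that median, so it does not show how far the differences within each treatment depend on the scaling. No paired analysis was possible because the columns carry no replicate number. Depth outside the mitochondrial chromosome differed by library, so genes with low levels are measured least precisely.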
